A study of Mus musculus with 6 samples.

Results

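Conventional dendritic cells (cDCs), the cells that carry antigen from tissue to T cells, were described in single-cell RNA sequencing (scRNA-seq) of the injured rotator cuff enthesis, where the supraspinatus tendon inserts into bone. Of 85339 barcodes of sufficient quality, 919 met the rule for cDCs, 594 in wild-type controls and 325 in Nlrp3−/− mice. The rule asked for at least 1000 unique molecular identifiers (UMIs, counted RNA molecules), at least 200 genes and at most 10% mitochondrial UMIs. It then asked for at least 10 UMIs of the MHC class II genes H2-Aa, H2-Ab1 and H2-Eb1 together, and at least 2 UMIs of Flt3, Zbtb46, Xcr1, Clec9a, Cd209a and Ccr7 together. Barcodes with more than 2 UMIs of the macrophage genes C1qa, C1qb and C1qc, any UMI of the B cell gene Cd79a, more than 1 UMI of the plasmacytoid gene Siglech, or 0.5% or more of their UMIs from Col1a1, Col1a2 and Col3a1 were left out.

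Each of 3 libraries came from wild-type C57BL/6 mice and each of 3 from mice with a global Nlrp3 knockout, all after tear and repair of the rotator cuff and all harvested 7 days post injury (dpi). According to the methods, surgery was done at an age of 12 to 14 weeks and entheses were pooled before the cells were isolated. The library is the replicate here. Neither the number nor the sex of the animals behind a library is given in the labels, so p-values measure the spread between libraries, which may be partly technical. By title all 3 knockout libraries are Nlrp3 knockouts, whereas the genotype entry of replicates 2 and 3 names Nlrp4 and Nlrp5. In the dendritic cells Nlrp3 had 0 UMIs in each of the 3 knockout libraries and 422 UMIs in the wild-type ones.

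Conventional dendritic cells arise from bone marrow precursors that depend on the receptor FLT3. The transcription factor ZBTB46 marks them among myeloid cells. Type 1 cells (cDC1) carry the chemokine receptor XCR1 and the dead-cell receptor CLEC9A, depend on IRF8 and BATF3, and present antigen of dead cells on MHC class I. Type 2 cells (cDC2), for which CD209A is a common mouse marker, mostly prime helper T cells. Either type can mature, switch on CCR7 and move along lymph vessels to the draining node. NLRP3 is a sensor that, with the adaptor ASC (gene Pycard) and caspase-1, forms an inflammasome that cleaves the precursors of IL-1β and IL-18.

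MHC class II genes chose the members, and their promoters are shown because they share a short element, the Y box, which the factor NF-Y binds in this gene family. Each RefSeq promoter is a stretch of 300 bases around the start of the gene. H2-Aa lies on the minus strand at chr17:34287774-34288073 and H2-Eb1 on the plus strand at chr17:34305617-34305916, both in build GRCm38.p6. The capitals mark the letters CTGATTGG, each found once.
H2-Aa: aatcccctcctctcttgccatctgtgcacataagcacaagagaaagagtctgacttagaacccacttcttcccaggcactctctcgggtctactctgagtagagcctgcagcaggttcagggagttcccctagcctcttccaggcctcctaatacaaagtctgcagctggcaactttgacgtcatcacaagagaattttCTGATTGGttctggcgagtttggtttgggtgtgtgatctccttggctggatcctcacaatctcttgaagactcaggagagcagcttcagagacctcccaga
H2-Eb1: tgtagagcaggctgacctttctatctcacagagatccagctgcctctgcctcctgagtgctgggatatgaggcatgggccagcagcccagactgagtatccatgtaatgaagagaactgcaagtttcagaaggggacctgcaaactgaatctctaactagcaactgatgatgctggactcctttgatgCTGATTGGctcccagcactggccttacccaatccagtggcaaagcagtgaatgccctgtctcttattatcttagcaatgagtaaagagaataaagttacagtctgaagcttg
These letters, searched on both strands, stood in 1346 of 32851 RefSeq promoters of this length (4.10%) and at 3 of the 10 listed MHC class II genes with an entry, the other being H2-Oa. A match is a description of the letters only.

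Total depth was 97042713 to 134901999 UMIs per library. Nlrp3−/− replicate 1 stood apart. It held 22048 quality barcodes with a median of 2069 UMIs, where the other 5 libraries held 9903 to 15515 with medians of 4874 to 7421. The median depth of its dendritic cells was 5330 UMIs, against 5366 to 6597.5 in the other 5 libraries. The rule asks for minimum UMI counts, which shallow barcodes reach less often. These medians therefore cannot show whether shallow dendritic cells were missed in that library. Shares of quality barcodes are given with and without Nlrp3−/− replicate 1. No barcode was a member in 2 libraries, and 17 member barcodes were also quality barcodes of another library.

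The rule fixed that members carry the selection markers, so the following shares only describe its outcome. In the 3 wild-type and 3 knockout libraries, 46.6% to 68.4% of the members had a UMI of Flt3, 36.7% to 62.7% of Cd209a, 19.1% to 35.3% of Ccr7, 12.7% to 20.3% of Zbtb46, 9.56% to 15.4% of Clec9a and 4.55% to 8.0% of Xcr1. In 18642 neutrophils, which should lack these genes and were not chosen on them, the highest share for any of the 6 genes in any library was 0.450%. Members had medians of 5330 to 6597.5 UMIs per library and neutrophils of 1739.5 to 3995. Some genes that the rule did not use differed from macrophages. Against 2550 macrophages with MHC class II and C1q from the same libraries, the members had more Ifitm1, by 4.43 ± 0.62 (SD, n = 6 libraries) on the log2(CPM + 5) scale, and more H2-Oa, a modulator of peptide loading, by 3.70 ± 0.43. CPM are the UMIs of a gene scaled to 1e+06 UMIs of the cells summed in a library. Both differences had the same direction in 6 of 6 libraries. Mertk, a receptor for dying cells, had 2 UMIs over all members and was at 28.4 to 60.6 CPM in the macrophages. Levels are described here without a test, because cells were chosen on genes of the same profile.

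At the edge of the rule, 26 to 73 members per library had a marker sum of exactly 2. Just outside it lay 36 to 96 barcodes per library with a sum of 1 that passed every other limit. Few cells lay close to the MHC class II limit, with 4 to 9 members per library at 10 to 19 UMIs and 3 to 11 barcodes outside it at 5 to 9 UMIs. Farther out, 38 to 105 barcodes per library with enough marker UMIs had fewer than 5 UMIs of MHC class II. A marker sum of 0 was found in 202 to 661 barcodes per library that passed every other limit.

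Dendritic cells made up a smaller share of the barcodes in every Nlrp3−/− library than in any wild-type library. They were 1.38%, 1.99% and 1.11% of the quality barcodes in wild-type replicates 1 to 3, from 175, 309 and 110 members. In Nlrp3−/− replicates 1 to 3 they were 0.358%, 0.930% and 1.01%, from 79, 110 and 136 members. The closest pair, wild-type replicate 3 and Nlrp3−/− replicate 3, had overlapping Wilson 95% intervals of 0.922% to 1.34% and 0.858% to 1.20%, which cover counting error only. The means were 1.5 ± 0.451% and 0.768 ± 0.357% (SD, n = 3), a difference of −0.728 percentage points. An exact two-sided permutation test gave p = 0.1, the smallest p that 3 against 3 libraries allow. Without Nlrp3−/− replicate 1 the difference was −0.524 points (exact permutation p = 0.2, the smallest possible there). The lack of overlap there follows from that in the full set of libraries.

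The share also depended on what it was a share of and on depth. Among barcodes with at least 10 UMIs of MHC class II the cells made up 11.7% and 8.10% on average, a difference of −3.63 points (exact permutation p = 0.1). Among barcodes below the collagen limit they made up 1.83% and 1.19%, and there the groups overlapped (exact permutation p = 0.2). When each barcode was thinned to 1000 UMIs before the rule was applied, 0.348% and 0.181% remained, a difference of −0.167 points with overlapping groups (exact permutation p = 0.3). Without Nlrp3−/− replicate 1, left out here and in the subsets of quality barcodes by a choice made after the data were seen, these differences were −2.36, −0.513 and −0.112 points (exact permutation p = 0.2, 0.4 and 0.6), with overlapping groups in the latter 2. A lower share cannot be told apart from a higher number of other cells in these libraries.

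**Figure D1:**
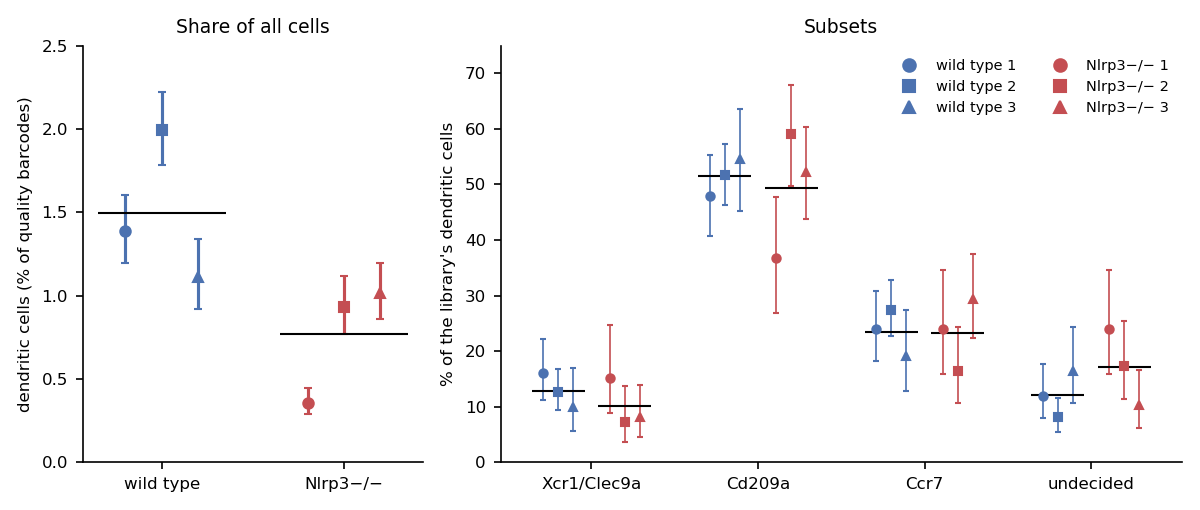
Share of dendritic cells per library. The left panel gives them in percent of quality barcodes and the right panel gives each subset in percent of the library's dendritic cells. Points are the 3 wild-type (blue) and 3 Nlrp3−/− (red) libraries, whiskers are Wilson 95% intervals, and black lines are means. On the left all wild-type points lie above all Nlrp3−/− points, with 1.11% the lowest and 1.01% the highest of the respective groups. On the right the groups overlap in each subset.

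Each member was put in the marker group with most UMIs, Xcr1 and Clec9a together, Cd209a, or Ccr7. This gave 109 Xcr1/Clec9a, 469 Cd209a and 225 Ccr7 members, and 116 members with no such UMI or a tie stayed undecided. Most members, 746, had UMIs of 1 group alone, 70 of 2 groups and 1 of all 3. Cd209a and Ccr7 were the pair found together most often, in 48 members. Xcr1/Clec9a with Cd209a occurred in 16 members and Xcr1/Clec9a with Ccr7 in 9.

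The mix of subsets overlapped between genotypes. Cd209a members were 48.0%, 51.8% and 54.5% of the dendritic cells in wild-type replicates 1 to 3 and 36.7%, 59.1% and 52.2% in Nlrp3−/− replicates 1 to 3. Ccr7 members were 24.0%, 27.5% and 19.1% in wild-type libraries and 24.1%, 16.4% and 29.4% in Nlrp3−/− libraries. Xcr1/Clec9a members were 16.0%, 12.6% and 10.0% against 15.2%, 7.27% and 8.09%. In Cd209a, Ccr7 and Xcr1/Clec9a members the difference between the genotype means was within the SD of the Nlrp3−/− libraries. Exact permutation p was 0.9 for Cd209a, 1 for Ccr7, 0.4 for Xcr1/Clec9a and 0.4 for undecided members, and 0.8 to 1 after Benjamini-Hochberg adjustment over the 4. Thinning to 1000 UMIs turned the sign for Xcr1/Clec9a members (0.88 points) and for Ccr7 members (5.02 points), with exact permutation p of 0.9 and 0.7. Those values rest on 0 to 5 Xcr1/Clec9a and 3 to 30 Ccr7 members per library. The difference for Cd209a members was −2.11 points and turned to 4.21 without Nlrp3−/− replicate 1 and to 1.32 with a marker sum of at least 3. That for Ccr7 members was −0.258 points and turned to 3.2 without Nlrp3−/− replicate 2, to 1.73 without wild-type replicate 2 and to 0.641 with markers of 1 subset only. With a marker sum of at least 3, Xcr1/Clec9a members were 13.4% and 9.33% of the dendritic cells without overlap (exact permutation p = 0.1). Without Nlrp3−/− replicate 1 their difference was −5.19 points in place of −2.69, again without overlap (exact permutation p = 0.2). With any other library left out it was −1.13 (wild-type replicate 1) to −4.13 points (wild-type replicate 3), with overlapping groups each time (exact permutation p = 0.4 to 0.8). As percent of all quality barcodes, the Xcr1/Clec9a subset was at 0.195 ± 0.0739% in wild-type controls and 0.0680 ± 0.0138% in Nlrp3−/− mice and the Cd209a subset at 0.767 ± 0.230% and 0.404 ± 0.236%, without overlap in either (SD, n = 3, exact permutation p = 0.1 for each). The Ccr7 subset was at 0.364 ± 0.170% and 0.179 ± 0.109% with overlapping groups (exact permutation p = 0.2), and undecided members were at 0.170 ± 0.0108% and 0.117 ± 0.0388% without overlap (exact permutation p = 0.1). Without Nlrp3−/− replicate 1 the Nlrp3−/− means were 0.0748% for Xcr1/Clec9a, 0.540% for Cd209a, 0.225% for Ccr7 and 0.133% for undecided members. Only the Ccr7 groups overlapped (exact permutation p = 0.4, and 0.2 for the others). For the others the lack of overlap follows from that in the full set of libraries.

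Of the 18 genes of the cDC1 list that the rule did not use, 14 were higher in Xcr1/Clec9a than in Cd209a members in 6 of 6 libraries and none was lower in 6 of 6. The median difference was 2.82 on the log2(CPM + 5) scale. Of all 6953 genes tested, 427 were higher and 738 lower in 6 of 6 libraries, with a median of −0.12. Tlr11, Cxcr3, Cd8a and Plet1 were higher in 3 to 5 libraries. Irf8, their lineage factor, was at 791, 1098 and 1040 CPM in wild-type replicates 1 to 3 and at 1160, 1988 and 1357 CPM in Nlrp3−/− replicates 1 to 3. It stood above the Cd209a members of the same library in 6 of 6 libraries, by 4.05 ± 0.59 (SD, n = 6) on the log2(CPM + 5) scale. Naaa, a lysosomal acid amidase, was higher by 2.95 ± 0.46, Rab7b, a GTPase of late endosomes, by 4.43 ± 0.55 and Batf3, the partner factor of IRF8, by 2.29 ± 0.45, also in 6 of 6 libraries. Wdfy4, which type 1 cells need for cross-presentation, had a mean of 462 CPM in Xcr1/Clec9a members, 65.9 CPM in Cd209a members and 35.8 CPM in Ccr7 members. Tlr3, a sensor of double-stranded RNA, averaged 105, 1.44 and 0.724 CPM in the same order, and Itgae, the CD103 integrin chain, 105, 0.829 and 0.347 CPM. Psmb9, a subunit of the immunoproteasome, was 1.42 ± 0.20 higher than in Cd209a members.

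Of the 19 genes of the cDC2 list other than Cd209a, 12 were lower in Xcr1/Clec9a than in Cd209a members in 6 of 6 libraries and none was higher in 6 of 6 (median −1.76). Against Cd209a members, Clec10a, a galactose lectin, was lower in Xcr1/Clec9a members by 5.34 ± 0.67 (SD, n = 6) on the log2(CPM + 5) scale, Sirpa, an inhibitory receptor, by 3.66 ± 1.33, and S100a4 by 3.31 ± 0.66, in 6 of 6 libraries each. With 8 to 39 members per library this subset was the smallest, and its values rest on few cells.

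Cd209a members, the most frequent subset, held the lectins and trafficking receptors of type 2 cells. Clec10a was at 477, 785 and 352 CPM in wild-type replicates 1 to 3 and at 437, 423 and 683 CPM in Nlrp3−/− replicates 1 to 3. Ccr2, the receptor that brings cells out of the blood, was at 394, 348 and 671 CPM and at 476, 657 and 623 CPM. Sirpa was at 109, 138 and 180 CPM and at 212, 229 and 253 CPM. Clec10a and Ccr2 overlapped between the genotypes, whereas every Nlrp3−/− library was above every wild-type library for Sirpa. Groups did not overlap for 18.1% of the 4785 genes tested in this subset, and Sirpa did not pass there (0.58 on the log2 scale, edgeR adjusted p = 0.268) or over all dendritic cells (0.62, adjusted p = 0.125). Il1r2, the decoy receptor for IL-1, averaged 217 CPM in Cd209a members and 194 CPM in Ccr7 members but 17.8 CPM in Xcr1/Clec9a members.

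Ccr7 members carried a mature, migratory profile in both genotypes. Fscn1, an actin bundler of dendrites, was at 672, 804 and 356 CPM in wild-type replicates 1 to 3 and at 965, 1869 and 1448 CPM in Nlrp3−/− replicates 1 to 3. Il12b, the shared subunit of IL-12 and IL-23, was at 202, 181 and 405 CPM and at 54.8, 644 and 526 CPM. Over all members its UMIs came from 23 wild-type and 10 Nlrp3−/− cells, and the top 3 cells held 48.8% and 65.2% of them. Ccl22, a chemokine for CCR4-bearing T cells, was at 347, 492 and 747 CPM and at 888, 590 and 387 CPM. Every Nlrp3−/− library lay above every wild-type library for Fscn1, and the other 2 genes overlapped. Of the 2714 genes tested in this subset, 20.7% had groups that did not overlap. In edgeR none of the 3 passed between genotypes in this subset (Fscn1 1.14 on the log2 scale, adjusted p = 0.127), whereas DESeq2 called Fscn1 higher in Nlrp3−/− mice.

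Against Cd209a members of the same library, Fscn1 was 6.91 ± 1.01 (SD, n = 6) higher in Ccr7 members on the log2(CPM + 5) scale, Ccl22 5.99 ± 1.11, Il4i1, an amino acid oxidase, 5.87 ± 0.93, Il12b 5.66 ± 1.30 and Ccl5 4.82 ± 0.87, in 6 of 6 libraries each. Of the 25 genes of the mature migratory list other than Ccr7, 21 were higher in 6 of 6 libraries and none was lower in 6 of 6 (median 2.87). Of the 14 genes of the costimulation and checkpoint list, 8 were higher in 6 of 6 libraries, among them the costimulator Cd40 by 2.46 ± 0.44 and the checkpoint ligand Cd274 by 3.23 ± 0.29, and 2 were lower in 6 of 6, Vsir by 1.08 ± 0.38 and Lgals9 by 1.57 ± 0.63. The median difference of the list was 0.97. Of all 6953 genes tested, 642 were higher and 904 lower in 6 of 6 libraries, with a median of −0.13. Relb, the NF-κB subunit of mature dendritic cells, was higher by 2.30 ± 0.25. In the opposite direction, Ccr2 was lower by 2.32 ± 0.61, the peptide exchange factor gene H2-DMa by 1.41 ± 0.25 and Pycard by 1.48 ± 0.30. The MHC class II transactivator gene Ciita averaged 66.7 CPM in Ccr7 members, 114 CPM in Cd209a members and 108 CPM in Xcr1/Clec9a members, while H2-Aa itself averaged 8462, 8785 and 6909 CPM. All H2-Aa values carry the selection on MHC class II.

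**Figure D2:**
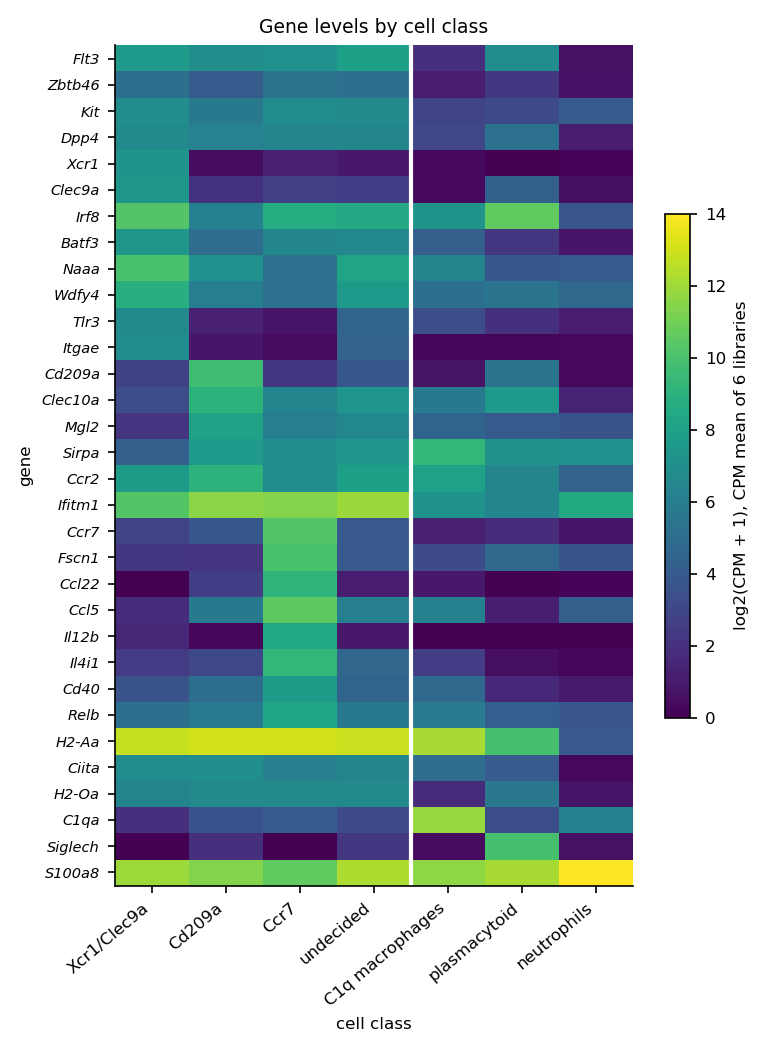
Levels of cDC genes and of genes of other cell types by class. Colour is log2(CPM + 1) of the mean CPM over the 6 libraries, columns left of the white line are the dendritic cell subsets, and columns right of it are macrophages with C1q, plasmacytoid dendritic cells and neutrophils. Irf8, Naaa and Wdfy4 are brightest among the dendritic subsets in Xcr1/Clec9a members, Clec10a and Mgl2 in Cd209a members, and Fscn1, Ccl22, Il12b and Relb in Ccr7 members. The genes Flt3, Zbtb46, Xcr1, Clec9a, Cd209a, Ccr7, H2-Aa, C1qa and Siglech were used to choose cells, and S100a8 to choose the neutrophils.

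Undecided members had Flt3 at 211, 236 and 236 CPM in wild-type replicates 1 to 3 and at 269, 173 and 285 CPM in Nlrp3−/− replicates 1 to 3. This level carries the selection, since the 102 of them without a subset marker could enter only through Flt3 and Zbtb46. The Irf8 level of undecided members averaged 348 CPM, between the means of Cd209a members (70.4 CPM) and Xcr1/Clec9a members (1239 CPM). They also held much S100a8, a neutrophil gene, at 14932, 2127 and 9580 CPM in the wild-type libraries and 67.1, 2592 and 274 CPM in the Nlrp3−/− libraries. The part of neutrophil RNA in this class was not tested.

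Division genes were found in each subset. At least 2 UMIs of Top2a and Mki67 together were present in 23 of 109 Xcr1/Clec9a members (21.1%), 25 of 469 Cd209a members (5.33%), 14 of 225 Ccr7 members (6.22%) and 17 of 116 undecided members (14.7%). By library, the Xcr1/Clec9a counts were 10 of 28, 5 of 39 and 5 of 11 in wild-type controls and 2 of 12, 1 of 8 and 0 of 11 in Nlrp3−/− mice. The Cd209a shares were 5.95%, 2.5% and 6.67% against 0%, 10.8% and 7.04%, the Ccr7 shares 11.9%, 3.53% and 4.76% against 5.26%, 5.56% and 7.5%, and the undecided shares 19%, 12% and 16.7% against 15.8%, 15.8% and 7.14%. Xcr1/Clec9a members had a higher share than Cd209a and Ccr7 members in 5 of 6 libraries and the lowest share in Nlrp3−/− replicate 3. After thinning to 1000 UMIs the shares with any UMI of either gene were 12.8%, 3.84%, 5.33% and 10.3% in the same order of subsets. Numbers per library are small, and cells without such UMIs may still have been dividing.

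Of the inflammasome list, Nlrp3 itself differed between the genotypes and no other gene passed the test. Nlrp3 (chromosome 11, 59541568 to 59566956, plus strand, protein-coding, GRCm38) was at 82.1, 94.2 and 152 CPM in wild-type replicates 1 to 3 and had 0 UMIs in each Nlrp3−/− library, at least 23.5-fold lower when 3 counts per library are allowed. Within wild-type libraries it was at 43.6, 50.3 and 63.4 CPM in Xcr1/Clec9a members, 116, 114 and 202 CPM in Cd209a members and 78.9, 85.4 and 140 CPM in Ccr7 members. Xcr1/Clec9a members were lowest in every wild-type library and Cd209a members highest. In the same libraries it was at 78.5, 133 and 160 CPM in macrophages with C1q, at 46.2, 47.6 and 60.6 CPM in plasmacytoid dendritic cells, at 180, 605 and 287 CPM in neutrophils and at 93.6, 174 and 165 CPM in free RNA. Members had a UMI of Nlrp3 in 30.7% to 49.1% of cells per wild-type library and macrophages with C1q in 33.4% to 52.1%. The share was 8.64% to 11.3% in plasmacytoid cells and 38.3% to 60.1% in neutrophils. Median depths were 5564 to 6597.5, 5146 to 7448, 4021 to 4729 and 2474 to 3691 UMIs in the same order. The level in Xcr1/Clec9a members lay close to that in plasmacytoid cells. In each wild-type library Xcr1/Clec9a members, Ccr7 members and all members together were below free RNA. Cd209a members were above free RNA in replicates 1 and 3 and below it in replicate 2. The part of free RNA in these levels was not tested.

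The partners of NLRP3 were present in both genotypes. Pycard was at 306, 285 and 289 CPM in wild-type controls and at 280, 262 and 286 CPM in Nlrp3−/− mice (log2 fold change −0.28, edgeR adjusted p = 0.40). Casp1 was at 29.4, 29.6 and 33.8 CPM and at 25.3, 43.3 and 43.1 CPM (0.12, adjusted p = 0.83). Il1b, the main substrate, was at 992, 1413 and 2289 CPM and at 3293, 1111 and 2615 CPM, which is 0.43 ± 0.36 (SE) on the log2 scale (adjusted p = 0.56). The groups overlapped for each of these 3 genes. Il1rn, the receptor antagonist, was at 44.4, 97.4 and 51.8 CPM and at 118, 25.5 and 62.1 CPM, and Il18 at 27.1, 32.8 and 16.9 CPM and at 16.8, 14 and 30.4 CPM. Of the 13 genes of this list that could be tested, Nlrp3 was lower and 12 did not pass in edgeR, with 2 of the 13 at an unadjusted p under 0.05. A p that misses the threshold does not show equal levels.

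**Figure D3:**
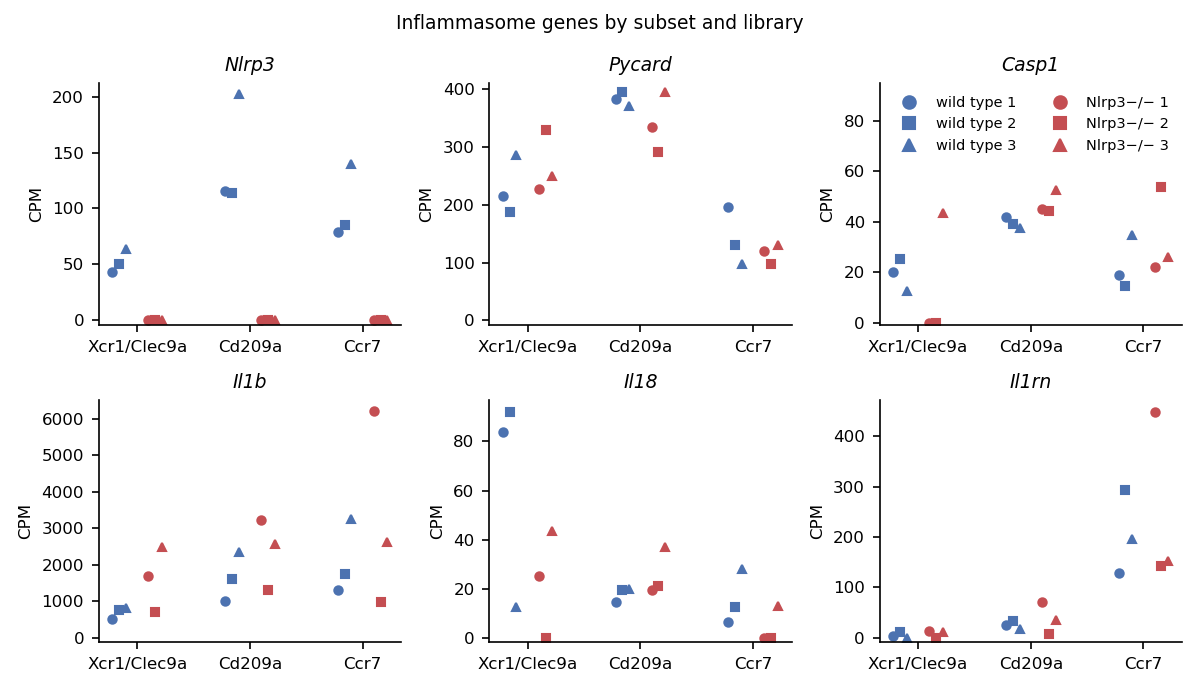
Inflammasome genes in the dendritic cell subsets. Each panel gives 1 gene, with CPM of the subset in a library on a linear axis, blue for the 3 wild-type and red for the 3 Nlrp3−/− libraries. Nlrp3 lies at 0 in all Nlrp3−/− libraries, Pycard is lowest in Ccr7 members, and Il1b and Il1rn have overlapping groups, with Nlrp3−/− replicate 1 highest in Ccr7 members.

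The genotypes were then compared across all genes of the dendritic cells. Counts were summed over the members of each library and tested with edgeR's quasi-likelihood test. Of 6953 genes tested, 28 passed at a Benjamini-Hochberg adjusted p under 0.05 (0.403%), 8 higher and 20 lower in Nlrp3−/− mice, and 1188 had an unadjusted p under 0.05 (17.1%). The number called depended on the settings, with 422 genes without wild-type replicate 3, 380 without the low-count filter and 139 of 1426 with an adjusted p in DESeq2. In the same order, 145 were higher and 277 lower, 139 higher and 241 lower, and 16 higher and 123 lower in Nlrp3−/− mice. In CPM the groups did not overlap for 1647 genes (23.7%), 1294 higher and 353 lower. This split depended on scaling, since with TMM normalisation factors, which the test uses, 1406 genes did not overlap, 682 higher and 724 lower. The median log2 fold change of all genes was 0.03.

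Sex-linked genes split the libraries by genotype. Xist, the RNA that silences an X chromosome in females, was at 988, 1214 and 863 CPM in Nlrp3−/− replicates 1 to 3 and had 0 UMIs in the wild-type libraries, at least 424-fold higher. The Y-linked Ddx3y was at 48.2, 58.2 and 69.8 CPM and Eif2s3y at 18.8, 51.9 and 63.0 CPM in the wild-type libraries, both with 0 UMIs in the others, so at least 12.6-fold lower for Ddx3y and at least 9.59-fold lower for Eif2s3y. Sex and genotype therefore cannot be told apart in any comparison here. By the methods, the wild-type mice came from the Shanghai Laboratory Animal Center and the knockout mice from Cyagen. Source and genotype cannot be told apart either. Of the 28 genes, 3 are X-linked (Xist, Cox7b, Mid1), 2 are Y-linked, 1 is Nlrp3 and 2 histone genes, Hist3h2a and Hist3h2ba, lie within 20 Mb of Nlrp3 on chromosome 11. The other 20 lie elsewhere.

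Among these, Ifi27l2a, an interferon-inducible gene (chromosome 12, 103442167 to 103443680, minus strand, protein-coding), was lower in Nlrp3−/− mice in the whole population and in both subsets that could be tested. It was at 1648, 1309 and 704 CPM in wild-type replicates 1 to 3 and at 373, 419 and 308 CPM in Nlrp3−/− replicates 1 to 3, which is −1.95 ± 0.29 (SE) on the log2 scale (edgeR adjusted p = 0.0109). In Cd209a members it was at 2443, 1929 and 1005 CPM against 611, 563 and 409 CPM (−1.94, adjusted p = 0.0193). In Ccr7 members it was at 1460, 1094 and 621 CPM against 384, 224 and 209 CPM (−2.06, adjusted p = 0.0196). The groups did not overlap in any of the 3, which was so for 23.7%, 18.1% and 20.7% of the genes tested there. Both subsets are parts of the whole population, so the 3 results are not independent. Ifi27l2a was also called lower in the macrophages with MHC class II and C1q. Its UMIs were spread over 454 of 594 wild-type and 185 of 325 Nlrp3−/− members, and whether they exceed free RNA was not tested. Other interferon-stimulated genes did not pass: edgeR called 0 of 17 tested genes of that list, with 3 at an unadjusted p under 0.05, and DESeq2 called neither of the 2 to which it gave an adjusted p. Irf7, the amplifier of interferon responses, was at 124, 90.5 and 49.5 CPM and at 12.6, 45.8 and 49.4 CPM (−1.44, edgeR adjusted p = 0.125).

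Besides Xist, 7 genes were called higher in Nlrp3−/− dendritic cells, by 0.93 (Aplp2) to 4.04 (Hpgd) on the log2 scale. Pmaip1, which encodes the pro-apoptotic protein NOXA, rose from 91.1, 106 and 127 CPM to 225, 251 and 235 CPM (log2 fold change 0.95 ± 0.17 SE, edgeR adjusted p = 0.0263). It also rose in Cd209a members, from 78.0, 86.3 and 94.8 CPM to 225, 252 and 201 CPM (1.25, adjusted p = 0.0193). Myof, a membrane repair protein, rose from 9.04, 15.3 and 21.4 CPM to 65.3, 54.7 and 55.8 CPM (1.77 ± 0.28 SE, adjusted p = 0.0137). For Pmaip1 and Myof the lowest Nlrp3−/− library stood above the highest wild-type library, which the rule for naming genes required.

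The X-linked ubiquitin ligase gene Mid1 rose by 2.37 on the log2 scale (edgeR adjusted p = 0.00428). Aplp2, a homologue of the amyloid precursor protein, rose by 0.93 (0.0459) and Raph1, an actin regulator that binds Ena/VASP proteins, by 1.14 (0.0447), but Aplp2 passed under 10 of 18 alternatives and Raph1 under 8 of 17. Hpgd, which degrades prostaglandins, was near 0 in wild-type controls, at 0.753, 3.17 and 0 CPM, and at 14.7, 61.1 and 21.6 CPM in Nlrp3−/− mice. It had 7 and 72 UMIs in the groups, the latter in 40 members (4.04 ± 0.69 SE, adjusted p = 0.0241). In Cd209a members it passed as well (3.81, adjusted p = 0.0208). Tpm3-rs7 (chromosome 14, 113314608 to 113316754, plus strand) was at 231, 110 and 297 CPM against 6.32, 2.55 and 5.07 CPM (−5.71 ± 0.46 SE, adjusted p = 8.99e-05). It is named as a sequence related to Tpm3, and reads of such copies may be split by the counting, so its level is uncertain.

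**Figure D4:**
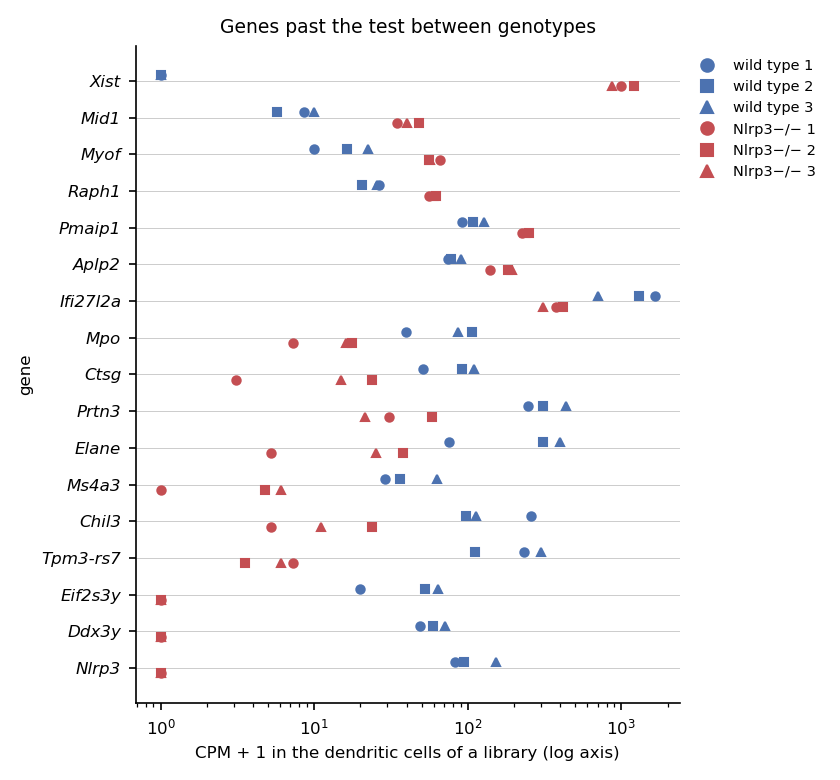
Genes that passed the test between genotypes, as CPM + 1 on a log axis in the dendritic cells of each library. Blue marks the 3 wild-type and red the 3 Nlrp3−/− libraries, and the 16 genes named by the rule are shown with Ifi27l2a. The groups do not overlap for any gene shown, which the rule required of the 16 genes it named. Groups did not overlap for 23.7% of all 6953 genes tested. Nlrp3, Ddx3y and Eif2s3y lie at 0 CPM in Nlrp3−/− libraries and Xist at 0 CPM in wild-type libraries.

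Several granule genes of early neutrophils and progenitors were lower in Nlrp3−/− mice. Prtn3, a serine protease, was at 245, 310 and 434 CPM in wild-type replicates 1 to 3 and at 29.5, 57.3 and 20.3 CPM in Nlrp3−/− replicates 1 to 3 (log2 fold change −3.36 ± 0.31 SE, edgeR adjusted p = 0.000182). Elane, neutrophil elastase, differed by −3.63 (0.0148), Mpo, myeloperoxidase, by −2.70 (0.0119), Ctsg, cathepsin G, by −2.71 (0.0109) and Ms4a3, a gene of granulocyte and monocyte progenitors, by −3.72 (0.00508). Chil3, a chitinase-like protein of myeloid cells with a near-identical neighbour, Chil4, differed by −3.72 (0.00428). Of the 6 tested genes of the hematopoietic progenitor list, Mpo, Elane, Prtn3 and Ctsg were called lower. The other 2 did not pass and had positive values, 1.58 for Cd34, a surface protein of progenitors (adjusted p = 0.190), and 0.77 for Kit, the stem cell factor receptor (0.270). The top 3 members held 64.2% of the wild-type and 70.4% of the Nlrp3−/− UMIs of Cd34, against 8.70% and 10.1% for Kit. All 6 had an unadjusted p under 0.05. Over all genes tested, 0.403% were called and 17.1% had an unadjusted p under 0.05.

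Few cells held this RNA. Members with at least 10 UMIs of Mpo, Elane, Prtn3, Ctsg and Chil3 together numbered 8, 5 and 4 in wild-type replicates 1 to 3 and 0, 2 and 1 in Nlrp3−/− replicates 1 to 3. In the wild-type libraries they held 800 of 883, 1640 of 1720 and 975 of 1014 such UMIs, and a single member held 314, 926 and 459. Without these members, an alternative chosen after the calls were seen, 19 genes passed. Of the 28 genes, 24 could be tested and 17 passed again, while Elane, Mpo, Ctsg and Ms4a3 fell under the low-count filter. Prtn3 then turned to 0.71 on the log2 scale (edgeR adjusted p = 0.318), and Chil3 was at −1.43 (0.146). Mpo, Elane, Prtn3, Ctsg and Chil3 chose the members left out, so much of their change was fixed by that choice. In free RNA, taken from barcodes with at most 100 UMIs, Prtn3 was at 423 to 680 CPM in wild-type and 407 to 1029 CPM in Nlrp3−/− libraries, and Chil3 at 310 to 832 CPM and 80.2 to 168 CPM. Of the wild-type members rich in granule RNA, 6 of 8, 4 of 5 and 3 of 4 had over 1% of their UMIs from S100a8 and S100a9. Leaving out the members with the highest doublet scores instead turned Elane to 0.97 (adjusted p = 0.319). What these members are was not tested.

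**Figure D5:**
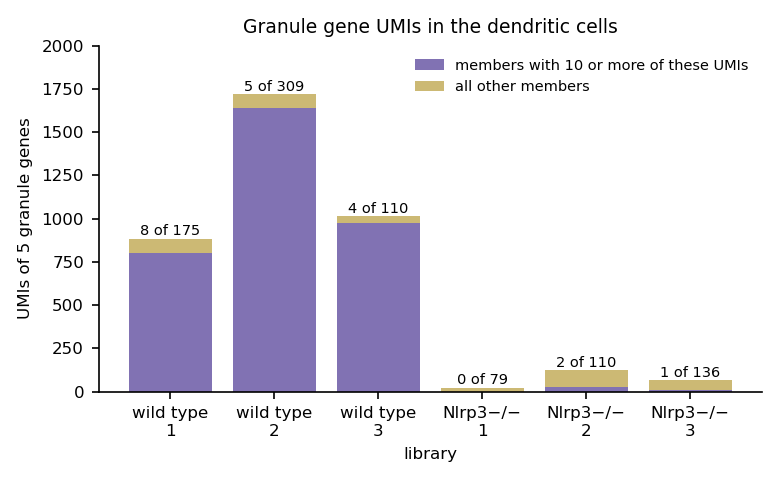
UMIs of Mpo, Elane, Prtn3, Ctsg and Chil3 in the dendritic cells of each library. Purple is the part held by members with 10 or more of these UMIs, whose number of all members stands above each bar, and yellow the part held by all others. Wild-type bars reach 883, 1720 and 1014 UMIs, almost all from 8, 5 and 4 members, and Nlrp3−/− bars reach 22, 123 and 66 UMIs.

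Summed RNA of other cell types was read in the same members. The summed list of 12 neutrophil markers took 0.900% to 2.12% of member UMIs in wild-type libraries and 0.129% to 0.920% in Nlrp3−/− libraries, with overlapping groups. S100a8 was at 7767, 2929 and 3771 CPM against 465, 2517 and 1062 CPM (log2 fold change −2.05, edgeR adjusted p = 0.102), and 0 of 11 tested neutrophil markers passed in edgeR, with 5 at an unadjusted p under 0.05, and none of the 7 with an adjusted p in DESeq2. In Ccr7 members the list took 0.347%, 0.479% and 0.0509% in wild-type libraries and 0.0899%, 1.11% and 1.02% in Nlrp3−/− libraries, and 5 of 6 tested markers had a positive log2 fold change (median 1.93), 0 called and 3 at an unadjusted p under 0.05. The 10 mesenchymal markers took 0.0304% to 0.0672% against 0.0674% to 0.126%, and the 9 B cell markers, 1 of them at 0, took 0.0125% to 0.0131% against 0.0143% to 0.0326%. The selection gene Cd79a is 0 by rule, and the rule also limits the collagen genes among the mesenchymal markers. The 8 progenitor markers took 0.0450% to 0.117% against 0.0190% to 0.0347%. The 8 erythroid markers took at most 0.00271% except in Nlrp3−/− replicate 2, at 0.403%. There 2 of 110 members had over 1% of their UMIs from hemoglobin genes. Of all Hbb-bs UMIs in the Nlrp3−/− libraries, 3 members held 99.0%. The 15 genes of the dissociation response took 0.698%, 0.698% and 1.09% against 1.07%, 1.02% and 1.01%. In an alternative, members over a limit for RNA of neutrophils, red cells, T, NK or B cells, or mast cells and basophils were left out. Of the 28 genes called over all members, 27 could then be tested and 22 passed again. The part of these RNAs below such limits, or of mesenchymal RNA, in the calls other than the granule genes was not tested.

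No gene of the lists that describe the dendritic cells passed the edgeR test between genotypes, where 17.1% of all genes had an unadjusted p under 0.05. Genes that chose the cells are left out of the counts in the lists that follow. The lists held 11 cDC identity genes (2 at an unadjusted p under 0.05), 13 cDC1 genes (1), 16 cDC2 genes (7), 21 genes of mature migratory cells (2), 13 of costimulation and checkpoints (2), 10 of MHC class II presentation (3) and 18 of MHC class I and cross-presentation (4). DESeq2, which gave an adjusted p for a part of them, called Mgl2 and Il4i1 higher and Ifi205, Cd7, Ifitm1, Psmb8 and Psme1 lower. Mgl2, a lectin of type 2 cells, was at 70.8, 130 and 68.6 CPM in wild-type controls and at 154, 249 and 271 CPM in Nlrp3−/− mice (log2 fold change 1.11, edgeR adjusted p = 0.122). Irf4, a factor of type 2 cells, was at 6.78, 11.1 and 14.6 CPM and at 23.2, 33.1 and 27.9 CPM (1.22, adjusted p = 0.122). Both had groups that did not overlap, which was so for 23.7% of all genes.

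Signals sent and received by the cells gave 0 calls in edgeR as well, over 7 cytokine genes, 13 chemokine genes, 9 chemokine and migration receptors, 9 pattern recognition receptors and 14 genes of NF-κB feedback. At an unadjusted p under 0.05 there were 0, 0, 2, 0 and 1, and DESeq2 called none of those to which it gave an adjusted p. For cell division 0 of 20 genes were called, with 0 at an unadjusted p under 0.05 and none of the 5 with an adjusted p in DESeq2. The dissociation list had 0 of 15 calls in edgeR and 1 at an unadjusted p under 0.05, and DESeq2 called Fosb higher. Median log2 fold changes of these lists lay between −0.23 and 0.36.

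Of the lists for other cell types, edgeR called 0 of 12 monocyte and macrophage, 0 of 3 B cell, 0 of 3 T and NK cell, 0 of 2 plasmacytoid, 0 of 6 mesenchymal, 0 of 1 mast cell and basophil, 0 of 2 Langerhans cell and 0 of 4 endothelial markers. At an unadjusted p under 0.05 there were 3, 2, 1, 1, 1, 0, 2 and 1. Among the markers with an adjusted p, DESeq2 called Col1a1 higher, a gene that the collagen limit uses, and no other, and no erythroid marker could be tested.

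Within subsets the calls were fewer, and so were the cells and the genes tested. In Cd209a members 14 of 4785 genes passed (0.293%), 4 higher and 10 lower, and 623 had an unadjusted p under 0.05. Beside Nlrp3, Xist, Ddx3y, Tpm3-rs7, Ifi27l2a, Pmaip1 and Hpgd they included Chil3 (192 CPM or more in wild-type replicates 1 and 2, 27.4 CPM in replicate 3 and at most 16.4 CPM in Nlrp3−/− libraries) and Hist3h2a (34.5, 47.2 and 27.4 CPM against 6.43, 7.01 and 2.64 CPM). Members rich in granule RNA, which includes Chil3, numbered 6, 3 and 0 among the Cd209a members of wild-type replicates 1 to 3. In Nlrp3−/− replicates 1 to 3 they numbered 0, 0 and 1. Cd209a members were not fitted without them. In Ccr7 members 4 of 2714 genes passed (0.147%), namely Nlrp3, Xist, Tpm3-rs7 and Ifi27l2a, and 420 had an unadjusted p under 0.05. Xcr1/Clec9a members were not fitted, because Nlrp3−/− replicate 2 held 8 of them, under the minimum of 10 per library.

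The genotype difference was also set against that in macrophages with MHC class II and C1q from the same libraries. A test of the difference of differences, with the library as a block, called 0 of 9715 genes (0%) in edgeR, with 726 at an unadjusted p under 0.05 and a smallest adjusted p of 0.110. DESeq2 was not run for it. In the macrophages themselves 38 of 9683 genes passed. These included, in the same direction, 14 of the 28 genes of the dendritic cells, 11 of the 14 of Cd209a members and 4 of the 4 of Ccr7 members. The dendritic cells and macrophages of a library share animals and free RNA.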

How the data were processed

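The authors deposited, for each of 6 libraries of droplet-based 3′ scRNA-seq, a raw matrix of counts: UMIs per gene and barcode, before cell calling, normalization or pooling. The file headers name Cell Ranger 4, whereas the submitters' processing notes name Cell Ranger 2.1.1 and build mm10, which is GRCm38. Each matrix listed 32285 genes, 32235 of them found in the GENCODE annotation of GRCm38, from which positions were taken. Promoters came from RefSeq (GRCm38.p6), and H2-Ab1 is not shown.

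Groups came from the titles. The members, subsets and 27 gene lists (362 of 366 genes in the files) were chosen with earlier results of these data known. Neutrophils had at least 5% of their UMIs from S100a8 and S100a9 and at most 2 UMIs of MHC class II. Macrophages had at least 10 UMIs of MHC class II, at least 10 of C1qa, C1qb and C1qc and at most 1 of the 6 dendritic markers.

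Counts were summed per library over the members and tested with edgeR 4.0.16 (R 4.3.3): TMM, filterByExpr, quasi-likelihood test and Benjamini-Hochberg adjustment over all genes tested. The library was the replicate. Shares were compared by an exact two-sided permutation test over 20 assignments. Fitted fold changes include TMM factors and can differ from ratios of CPM. Where a group had 0 UMIs, the fold was bounded with 3 counts in each library. On simulated counts over 6953 genes, the test of all members recovered 71% of genes changed 2-fold and 98% of genes changed 4-fold. The test of Cd209a members, over 4785 genes, recovered 39.1% and 94.7%, and that of Ccr7 members, over 2714 genes, 35.5% and 97.7%. The changed genes were drawn from those with a mean of at least 20 CPM, and the spread followed the fitted trend. Only changed genes that passed the low-count filter again were counted (200, 187 and 181 in the 3 tests). Recovery of genes at lower levels was not tested.

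Scrublet (in scanpy 1.11.5) scored doublets and none were removed, because its automatic threshold marked 10014 barcodes in Nlrp3−/− replicate 1 and 308 to 656 in the other 5. Alternatives changed 1 choice at a time: limits of the rule, doublets (highest scores at 0.8% per 1000 barcodes left out), RNA of other types, denominators, thinning, RLE size factors, low-count filter, DESeq2 1.42.0, subset assignment, macrophage gate, each library left out and the replicate block. The alternative without granule-rich members was chosen after seeing the data.

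Named genes were, for all members, up to 10 per direction with the largest fold change among those that passed, with a mean of at least 20 CPM, groups that did not overlap and no predicted or clone-based symbol, up to 5 per direction within subsets, and the inflammasome list and the defining or called genes of each list. Hist3h2ba, Cox7b, Irf7, Il4i1 and the genes called by DESeq2 alone were named after their values were seen.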

Additional observations from a re-analysis of the deposited data

How the results depend on the processing

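The mean share of dendritic cells was lower in Nlrp3−/− mice under each of the 17 alternatives run. The difference was −3.63 points among MHC class II barcodes, −0.167 after thinning to 1000 UMIs, and −0.480 to −0.921 with a library left out. Its sign was fixed in advance with a library left out and with the replicate block, because the groups did not overlap in the main setting. Groups overlapped below the collagen limit and after thinning to 1000 or to 2000 UMIs (−0.361 points for the latter, exact permutation p = 0.3). For genes over all dendritic cells, 28 calls became 139 with DESeq2, which gave an adjusted p for 1426 genes and called 9 of the 9 edgeR genes among them, 380 without a low-count filter and 14 in Cd209a members alone. Leaving out a library gave 17 (without Nlrp3−/− replicate 1) to 422 calls (without wild-type replicate 3), and without Nlrp3−/− replicate 3, 17 of 27 were higher. The remaining alternatives gave 19 to 38. In Cd209a members 14 calls became 31 with DESeq2 and 4 to 178 with a library left out (178 without wild-type replicate 3). In Ccr7 members 4 calls became 24 with DESeq2 and 2 to 33 with a library left out (33 without Nlrp3−/− replicate 1). The interaction with macrophages, at 0 calls, gave 109 without a low-count filter and 0 to 5 with a library left out (5 without Nlrp3−/− replicate 2, 3 without Nlrp3−/− replicate 3). The cause of these shifts was not tested.

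Signs reversed for Prtn3 (0.71 without granule-rich members), Elane (0.97 without high doublet scores), Casp1 (−0.0108 to 0.265 with a library left out, negative without Nlrp3−/− replicate 3) and Flt3 (a gene that chose the members, −0.0206 to 0.365, negative without Nlrp3−/− replicate 1). The granule-rich members were chosen on Prtn3 among other genes, so its change was largely fixed by that choice. Of the 28 genes, 9 passed under every alternative that gave them an adjusted p: Nlrp3, Xist, Ddx3y, Eif2s3y, Tpm3-rs7, Gm8797, Gm42031 and Gm43305, each under 16 to 18 alternatives, and Ms4a3, which had an adjusted p under 12 and not without granule-rich members. Ifi27l2a passed under 16 of 18 (highest adjusted p 0.09, edgeR), Chil3 under 16 of 17, Mid1 under 15 of 17, Hpgd under 14 of 16, Myof under 14 of 17, Prtn3 under 14 of 18, Ctsg under 12 of 15, Pmaip1 under 12 of 18, Elane under 11 of 17, Aplp2 under 10 of 18, Mpo under 9 of 14 and Raph1 under 8 of 17. RLE factors moved the median of all genes by −0.01.

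Same-numbered libraries did not deviate together (correlations of −0.09, −0.20 and −0.19 over 6953 genes). The other pairs across genotypes had −0.00566 to 0.161. Deviations were taken from the mean of each genotype, so these correlations depend on each other. Whether same-numbered libraries shared a preparation was not tested. With the replicate block, 20 genes passed over all dendritic cells, 18 of them among the 28, 17 in Cd209a members and 3 in Ccr7 members. The paired difference in share was −0.728 points (exact permutation p = 0.25, the smallest possible).

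Xcr1/Clec9a members numbered 8 to 39 per library. For all members of a library, the limit that a count of 0 allows was 1.59 to 6.32 CPM.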

Other observations

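Plasmacytoid dendritic cells, which the limit on Siglech keeps out, numbered 27 to 135 per library and 421 in all. A UMI of Cd209a was present in 14.8% to 24.4% of them per library, at median depths of 3362 to 4729 UMIs. Among neutrophils, which were not chosen on this gene, the same share was 0.0446% to 0.119% at median depths of 1739.5 to 3995 UMIs.

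The Langerhans cell list, 5 genes with 2 at 0 UMIs, took 0.00201% to 0.00608% of the UMIs of dendritic cells in wild-type controls and 0.00505% to 0.0143% in Nlrp3−/− mice. Cd207, the defining gene langerin, had 5 UMIs in all. Epcam, an adhesion molecule, was at 9.04, 5.82 and 32.6 CPM in wild-type replicates 1 to 3 and at 12.6, 52.2 and 63.4 CPM in Nlrp3−/− replicates 1 to 3, with overlapping groups (log2 fold change 1.51, edgeR adjusted p = 0.2). Cdh1, which encodes E-cadherin, was at 9.04, 13.2 and 28.1 CPM and at 37.9, 56.0 and 79.9 CPM, without overlap (23.7% of all genes had none), and did not pass (1.72, adjusted p = 0.0649). Both had an unadjusted p under 0.05.

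Among cytokines, Il6 was at 5.27, 4.76 and 42.8 CPM in the dendritic cells of wild-type replicates 1 to 3 and at 42.1, 34.4 and 17.7 CPM in those of Nlrp3−/− replicates 1 to 3. Tnf was at 105, 86.8 and 129 CPM and at 162, 118 and 60.8 CPM. Il10 had 14 UMIs over all members and Il27 had 7. No cytokine of the list passed the edgeR test, and none had an unadjusted p under 0.05.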
